A study of Mus musculus with 45 samples.

Results

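Ankrd37, Bnip3, Vegfa, Car9, Pgk1, Ldha, Slc2a1, Egln3, Ndrg1 and Adm are hypoxia-response genes, which many cells switch on when oxygen runs low. They were chosen by gene symbol, 10 of the 36300 genes with a value, with results of these libraries already known. The lower Ankrd37 count after 3 h of 50 µM bisphenol A was among those results, so that comparison is described below without a test. RNA came from forelimb buds of CD1 mouse embryos, an outbred stock, taken on gestation day 13 and grown as an organ culture. Limb buds of both sexes were pooled, and the culture bottles were flushed with a gas mixture of 50% oxygen and 5% carbon dioxide in nitrogen at the start. The medium held the vehicle dimethyl sulfoxide alone, 10 µM bisphenol A or 50 µM bisphenol A, a building block of plastics with estrogen-like activity, and the cultures ended after 3, 24 or 48 h. Each of the 9 groups had 5 libraries. All groups shared the same stock, age, tissue, medium and gas.

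Cells sense oxygen through the hypoxia-inducible factors (HIF), whose alpha subunits, encoded by Hif1a and Epas1, pair with the beta subunit Arnt. When oxygen is present, prolyl hydroxylases of the Egln family mark the alpha subunit, the von Hippel-Lindau protein Vhl binds it and it is degraded; when oxygen is low it persists, enters the nucleus and binds short DNA elements beside its target genes. The targets take up glucose and turn it into lactate, recruit vessels, buffer acid and remove mitochondria. In the mouse limb the cartilage models have no vessels, and HIF activity is known to be needed for the chondrocytes at their centre.

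The element bound by HIF has the core ACGTG or GCGTG. RefSeq promoter sequences (GRCm38.p6) that hold such cores are shown here for 5 of the genes. The search took the 250 bases before each RefSeq start on both strands, and capitals mark the core on either strand, read as CACGT or CACGC where it lies on the other one. Matches that overlap were joined and counted as 1 site. Pgk1 is shown for chrX:106186930-106186993 (+), Slc2a1 for chr4:119108664-119108733 (+), Bnip3 for chr7:138909517-138909643 (−), Ldha for chr7:46845639-46845794 (+) and Ankrd37 for chr8:45999851-46000100 (−), each 5′ to 3′ on the gene's strand.
Pgk1: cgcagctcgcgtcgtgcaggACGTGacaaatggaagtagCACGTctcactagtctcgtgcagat
Slc2a1: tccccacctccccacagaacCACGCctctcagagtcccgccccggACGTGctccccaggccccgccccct
Bnip3: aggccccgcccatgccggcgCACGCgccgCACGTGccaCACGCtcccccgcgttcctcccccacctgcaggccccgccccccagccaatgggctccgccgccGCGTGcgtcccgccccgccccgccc
Ldha: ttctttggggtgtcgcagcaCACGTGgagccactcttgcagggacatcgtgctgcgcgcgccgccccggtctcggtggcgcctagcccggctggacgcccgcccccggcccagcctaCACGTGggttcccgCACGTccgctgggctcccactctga
Ankrd37: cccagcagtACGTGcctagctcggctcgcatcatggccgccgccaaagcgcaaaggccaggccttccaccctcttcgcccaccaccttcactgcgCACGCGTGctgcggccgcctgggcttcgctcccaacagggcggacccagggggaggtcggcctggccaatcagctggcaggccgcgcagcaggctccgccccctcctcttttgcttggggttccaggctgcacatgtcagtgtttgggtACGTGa

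The Pgk1 and Slc2a1 windows each held 2 sites, those of Ldha and Ankrd37 held 3 each, and that of Bnip3 held 4. RefSeq gave 11 windows for 9 of the genes, since Vegfa and Ldha have 2 starts each and no sequence was at hand for Ndrg1. A core was found in 10 of the 11 windows (90.9%). The exception was the first start of Vegfa, which lies 8 bases from its deposited gene start. The same letters were found in 38.6% of all 32851 promoter windows of this length, in 53.6% of the 15194 windows of genes that entered the tests and in 64.9% of the 10224 of those with at least 10 CpG. A match of 5 letters is frequent, and none of these matches was measured as bound. The RefSeq starts of Ankrd37 and of the Ldha window shown lie 5857 and 4329 bases from the gene starts deposited with the counts. Those of the other Ldha window and of the Vegfa window with a core lie 5607 and 7206 bases from them.

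The deposited read counts came to between 17.5 and 27.1 M reads per library. Markers of the tissue were present: all 12 chondrocyte markers had reads in every library of every group, and their summed level in vehicle was 5273 ± 512 CPM (read counts scaled to library size) at 3 h and 13070 ± 919 CPM at 24 h (SD, n = 5 each). The labels of the 3 h libraries with 50 µM conflict, with 24 hours in a field and 3 h in the title. The titles were followed, and the chondrocyte sum of these libraries, 5329 ± 413 CPM (SD, n = 5), lay with the 3 h vehicle libraries. CPM here are scaled by TMM factors over all 45 libraries, and all 10 genes passed the filter on low counts in every comparison. Nothing in the labels ties the 5 libraries of a group to separate litters or days, and the p-values refer to the spread among these libraries, technical spread included. In whole limb buds, fewer cells of a type and less RNA per cell cannot be told apart.

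Per length of transcript, the enzymes of glycolysis stood far above the rest. In vehicle at 3 h Pgk1, the kinase that makes ATP in glycolysis, had 132 ± 18.6 FPKM (reads scaled to gene length and library size), and Ldha, the lactate dehydrogenase subunit that turns pyruvate into lactate, had 105 ± 11.4 FPKM (SD, n = 5). Their ranges over the 5 libraries overlapped. Slc2a1, the glucose transporter of the cell membrane, had 25.9 ± 1.67 FPKM and lay above Vegfa, the main growth factor of blood vessels, at 20.5 ± 1.91 FPKM, with no overlap. Bnip3, a mitochondrial membrane protein that marks mitochondria for removal, had 12.6 ± 1.01 FPKM. The lowest levels were those of Egln3, a prolyl hydroxylase that HIF itself induces (3.66 ± 0.407 FPKM), Ndrg1, a stress-induced protein (3.61 ± 0.632), Ankrd37, an ankyrin-repeat protein (2.44 ± 0.828), Car9, a carbonic anhydrase that faces outward and handles acid (1.27 ± 0.354), and Adm, the vessel-dilating peptide adrenomedullin (0.727 ± 0.214). Egln3 and Ndrg1 overlapped each other, and so did Ndrg1 and Ankrd37, Ankrd37 and Car9, and Car9 and Adm.

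Over all 45 libraries the low genes also varied most. The highest CPM was 17.2 times the lowest for Ankrd37 and for Adm, 8.24 times for Car9 and between 2.19 times (Ldha) and 4.74 times (Egln3) for the others. The share of the variance of log2 CPM that lay between the 9 groups was 69.6% for Slc2a1, 67.4% for Pgk1 and 60.1% for Vegfa, but 14.2% for Bnip3, 20.8% for Car9, 24.9% for Adm and 26.0% for Ndrg1. Bnip3 thus differed mostly between libraries of the same group. Ankrd37, Egln3 and Ldha lay between these, at 49.5%, 53.2% and 46.1%. Counts behind the low genes were small, from 10 to 209 reads per library for Ankrd37, 13 to 150 for Car9 and 6 to 152 for Adm.

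**Figure D1:**
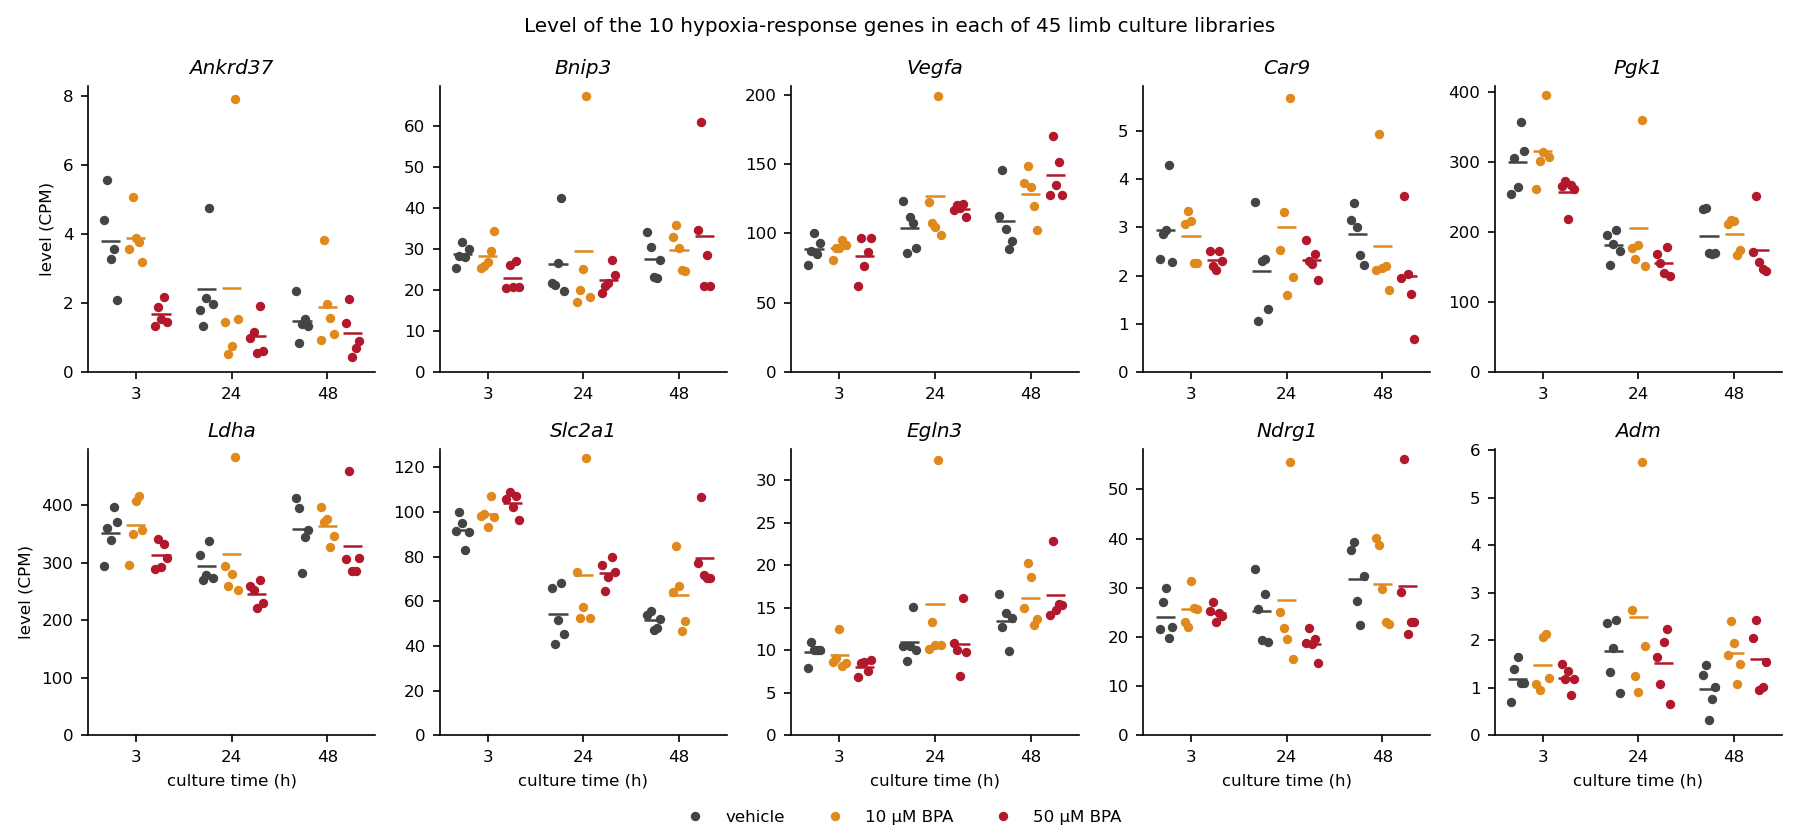
Level of each of the 10 genes (CPM, linear axis from 0, a scale of its own per panel) in every library, by culture time (h) and by dose (colour), with points for libraries and short bars for the means of 5. Slc2a1 and Pgk1 are lower at 24 and 48 h than at 3 h in vehicle, and single libraries of 10 µM at 24 h and 50 µM at 48 h lie above the rest of their group in every panel.

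In 2 libraries all 10 genes stood above the other 4 of their group. They were replicate 4 of 10 µM at 24 h and replicate 2 of 50 µM at 48 h. Ankrd37 was at 7.91 CPM in the first and at 1.46, 0.543, 0.775 and 1.54 CPM in its group's other libraries, 7.32 times their mean. Bnip3 was at 67.4 CPM against 17.25 to 25.15 CPM, a ratio of 3.34. The remaining ratios in that library were 3.45 for Adm, 2.91 for Egln3, 2.71 for Ndrg1, 2.41 for Car9, 2.15 for Pgk1, 2.11 for Slc2a1, 1.84 for Vegfa and 1.78 for Ldha. All 10 genes were thus high together, Ankrd37 the most and Ldha the least. Of all genes, 20.5% had their highest value of the 5 in this library.

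In replicate 2 of 50 µM at 48 h the ratios to the mean of the other 4 were smaller. They were 2.43 for Ankrd37, 2.34 for Ndrg1, 2.31 for Bnip3 and for Car9, 1.75 for Adm, 1.62 for Pgk1, 1.55 for Ldha, 1.53 for Egln3, 1.47 for Slc2a1 and 1.26 for Vegfa. Of all genes, 51.9% lay above that mean. Averaged over the 10 genes, the deviation from the group mean was 1.17 on the log2 scale in the first library and 0.70 in the second. The next were replicate 2 of 10 µM at 48 h (0.45), replicate 4 of vehicle at 24 h (0.41) and replicate 4 of 50 µM at 24 h (0.32), and the libraries of 3 h lay between −0.19 and 0.15. At 24 h replicate 4 was thus the highest in each of the 3 dose groups.

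**Figure D2:**
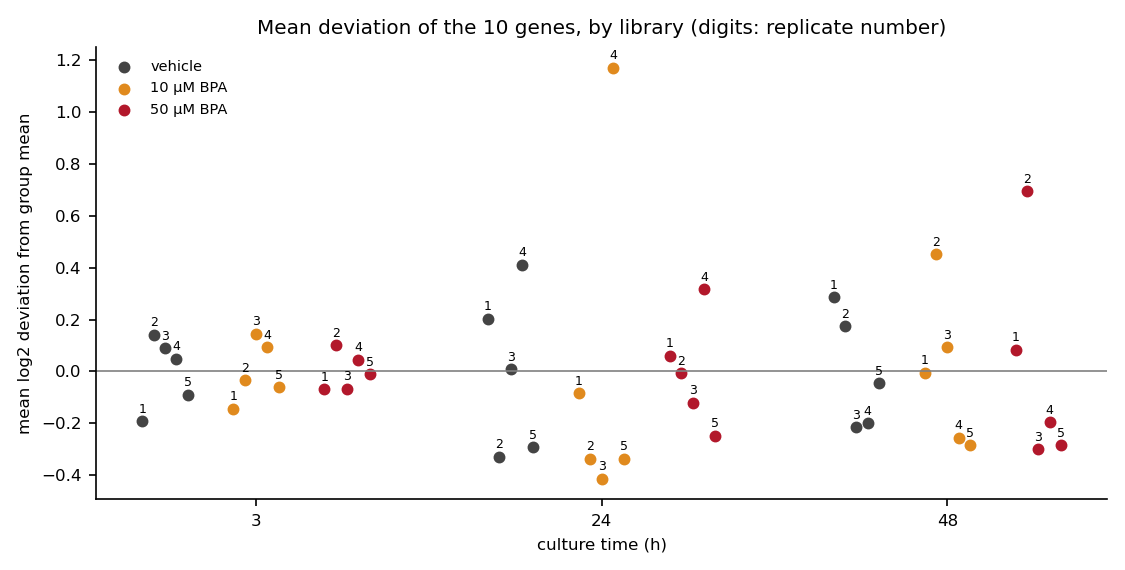
Mean over the 10 genes of the deviation from the group mean (log2 CPM) in each of the 45 libraries, by culture time (h) and dose (colour), with the replicate number above each point. Replicate 4 of 10 µM at 24 h (1.17) and replicate 2 of 50 µM at 48 h (0.70) lie above all other libraries, and those of 3 h stay between −0.19 and 0.15.

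Most other genes that HIF is known to induce were also higher in these libraries. The genes of oxygen sensing went both ways, with a median close to that of all genes. In replicate 4 of 10 µM at 24 h, 32 of 35 further HIF targets lay above the mean of the other 4 libraries, with a median log2 difference of 0.47, and so did 16 of 16 further glycolysis genes, with a median of 0.67. Over all genes 50.8% lay above, with a median of 0.00. Slc16a3, the exporter of lactate, was 3.06 times the mean of the other 4, Pfkfb3, which drives glycolysis, 2.95 times, and the hexokinase Hk2 2.41 times. Of 14 genes of oxygen sensing 9 lay above, with a median of 0.03. Hif1a itself was at 1.00 times, Vhl at 0.997, the asparagine hydroxylase Hif1an at 0.926 and Epas1 at 0.718. Egln1, a prolyl hydroxylase that is also a HIF target, was at 1.66 times. In replicate 2 of 50 µM at 48 h the counts were 31 of 35 HIF targets (median 0.27) and 15 of 16 glycolysis genes (median 0.40).

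Cell type markers differed in these libraries too. In replicate 4 of 10 µM at 24 h, 0 of 10 epidermal markers lay above the mean of the other 4, with a median log2 difference of −2.11, and 9 of 10 red-cell markers did, with a median of 0.34. In replicate 4 of vehicle at 24 h the epidermal median was −2.34, and in replicate 4 of 50 µM at 24 h −0.44, each with 0 of 10 above. In replicate 2 of 50 µM at 48 h it was 0.71, with 9 of 10 above. Macrophage markers (10 of 10 above, median 0.61), red-cell markers (7 of 10, 0.40), chondrocyte markers (11 of 12, 0.29) and hypertrophic chondrocyte markers (7 of 8, 0.42) were also high in that library. Summed epidermal markers ranged from 100.2 to 1154 CPM over the 10 µM group of 24 h and from 263.7 to 885 CPM over the 50 µM group of 48 h. The part of these cell types in the high values was not tested.

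**Figure D3:**
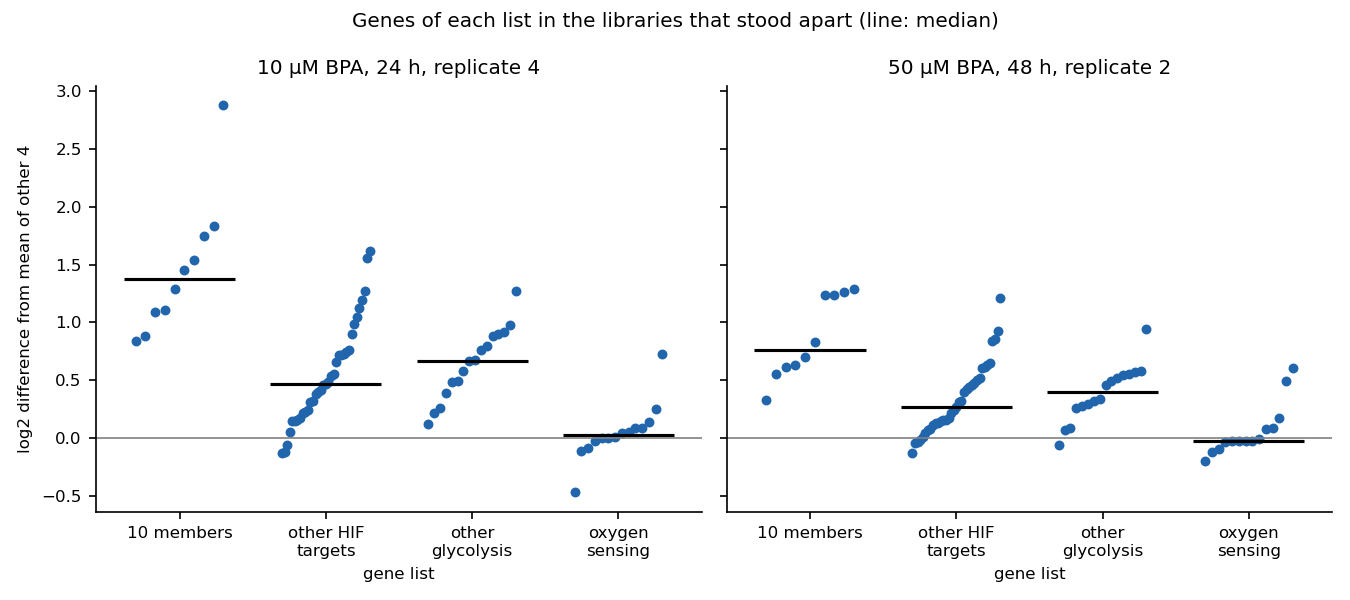
Log2 difference of each gene from the mean of the other 4 libraries of its group, in replicate 4 of 10 µM at 24 h and replicate 2 of 50 µM at 48 h, for the 10 genes and for 3 lists of other genes, with points for genes and lines for medians. The 10 genes lie above 0 in both, and the medians are 0.47 and 0.27 for HIF targets, 0.67 and 0.40 for glycolysis and 0.03 and −0.02 for oxygen sensing.

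In vehicle the genes of glucose uptake and glycolysis fell during the first day in culture, and Ankrd37 was lowest at 48 h. Slc2a1 was at 91.3, 99.8, 95.05, 82.7 and 90.9 CPM in the 3 h libraries and at 65.8, 40.8, 51.6, 68.2 and 45.5 CPM in those of 24 h. The groups did not overlap, and the log2 fold change was −0.75 ± 0.12 (SE, n = 5 each; adjusted p = 3.00e-04, edgeR's quasi-likelihood test with Benjamini-Hochberg adjustment over all genes). Pgk1 went from 254.9, 307, 264.3, 358.3 and 316.6 CPM to 196.3, 153.7, 183.2, 203.1 and 172.9 CPM. Every 24 h value lay below every 3 h value, with a log2 fold change of −0.71 ± 0.10 (adjusted p = 5.08e-05). Ldha fell by 0.25 ± 0.08 on the log2 scale (adjusted p = 0.038) with overlapping groups, a call kept in 3 of 10 fits that left out a library. These 3 of 10 genes compare with 30.0% of all genes that passed the test between these times. Over the 10 fits that left out a library, 2 to 5 of the 10 genes passed, beside 4353 to 5054 of all genes. Without replicate 4 of vehicle at 24 h, 5 genes were lower. Ankrd37 (−1.03, adjusted p = 0.016) and Bnip3 (−0.35, adjusted p = 0.028) passed in 1 of the 10 fits, this one. All 10 genes lay above their group mean in that library, so leaving it out lowers the 24 h values by itself.

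Between 24 and 48 h in vehicle none of the 10 genes passed edgeR's test, against 8.45% of all genes. Ldha (log2 fold change 0.28, adjusted p = 0.096) came nearest, 2 of the 10 had an unadjusted p under 0.05 (21.4% of all genes did), and DESeq2 called 1 (and 1954 of 16454 genes in all). Between 3 and 48 h, 3 genes were higher and 3 lower, and 46.7% of all genes passed. Slc2a1 was at 54.0, 55.6, 47.35, 48.3 and 52.0 CPM at 48 h, below all 3 h libraries (−0.83 ± 0.07, adjusted p = 6.52e-08). Pgk1 was lower by −0.61 ± 0.12 (adjusted p = 3.94e-04). Both had thus reached their later level by 24 h.

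Ankrd37 was at 4.42, 5.56, 3.28, 3.58 and 2.11 CPM at 3 h, at 1.81, 1.33, 2.165, 4.75 and 1.98 CPM at 24 h, and at 2.37, 0.851, 1.39, 1.535 and 1.35 CPM at 48 h. Only 1 of the 48 h libraries reached the lowest of 3 h, and the log2 fold change of 48 against 3 h was −1.32 ± 0.30 (adjusted p = 0.00158), a ratio of 0.40. The 3 h vehicle libraries also entered the comparison used in choosing the genes. The p-value of Ankrd37 does not allow for that choice, and leaving out single libraries does not undo it. In contrast, the vessel factor Vegfa (0.30 ± 0.11, adjusted p = 0.037), the hydroxylase Egln3 (0.46 ± 0.14, adjusted p = 0.011) and the stress gene Ndrg1 (0.41 ± 0.15, adjusted p = 0.031) rose. The calls of Slc2a1, Pgk1 and Egln3 held in all 10 fits that left out a library, and those of Vegfa and Ndrg1 in 4 each. In a fit of all 45 libraries none of these 3 rises passed. Bnip3, Car9, Ldha and Adm did not pass. Thus the list split between 3 and 48 h, with a median log2 fold change of −0.04.

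The makeup of the limb buds moved over the same time. In vehicle the summed red-cell markers went from 2173 to 1449 to 606.7 CPM and the endothelial markers from 444.6 to 302.9 to 287.5 CPM, while chondrocyte markers reached 19950 CPM at 48 h. Red cells and endothelium are known to carry Slc2a1. The part of these cells in its fall was not tested.

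After 3 h of 50 µM bisphenol A, Ankrd37 was at 1.35, 1.90, 1.55, 2.18 and 1.45 CPM, against the 2.11 to 5.56 CPM of vehicle given above. A single 50 µM library reached the lowest vehicle library. The log2 fold change was −1.16 ± 0.26 (SE, n = 5 each), a ratio of 0.446. The other 9 genes lay closer to 0, with Car9 at −0.35, Bnip3 at −0.32 ± 0.10, Egln3 at −0.29, Pgk1 at −0.23, Ldha at −0.18, Vegfa at −0.09, Adm at 0.02, Ndrg1 at 0.04 and Slc2a1 at 0.17 ± 0.06. Since values of this comparison were used in choosing the genes, no test is read from them. Of all genes, 1.41% passed the test here.

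Ankrd37 lies at chr8:45996902-46005707 on the minus strand in mm10 and overlaps Ufsp2 and Lrp2bp, genes of the opposite strand. The use of strand in counting was not stated, and reads of these genes cannot be told apart where they overlap. Ufsp2, with a mean of 39.5 CPM, was 0.29 higher on the log2 scale with 50 µM at 3 h (adjusted p = 0.054), opposite in sign to Ankrd37. Lrp2bp had the same sign as Ankrd37 at 3 h (−0.79 ± 0.46, SE, n = 5 each), at 0.450 CPM with 50 µM and 0.784 CPM in vehicle. Ufsp2 was also 0.29 higher at 48 h (adjusted p = 0.0092).

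At 24 h of 50 µM no gene of the list passed edgeR's test, where 3.47% of all genes did. However, 5 had an unadjusted p under 0.05 (15.75% of all genes did) and DESeq2 called 2 (and 917 of 16685 genes in all). With the replicate number as a block edgeR called Slc2a1 higher and Ankrd37, Pgk1, Ldha and Ndrg1 lower (and 1180 of 16841 genes in all). Same-numbered libraries did not all correlate above 0.1 here (lowest r 0.031), so values without a block are given. Ankrd37 was at 0.986, 1.18, 0.5625, 1.91 and 0.618 CPM, and 4 of these 5 libraries lay below all vehicle libraries. Its log2 fold change was −1.21 ± 0.40, as far from 0 as at 3 h but with an adjusted p of 0.134. Vehicle replicate 4, the highest at 4.75 CPM, carried part of the difference, and without it the value was −0.80 (adjusted p = 0.361). All 10 genes lay above their group mean in that library, so leaving it out lowers vehicle by itself. The median log2 fold change of the 10 genes was −0.22 with it. Without it the median was −0.04, with 5 genes above and 5 below 0.

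For Ldha the groups did not overlap at 24 h, though it did not pass edgeR's test without a block. Vehicle libraries had 313, 269.7, 278.9, 338.2 and 273.6 CPM, and 50 µM libraries 258.9, 251.8, 220.6, 269 and 229.9 CPM. The log2 fold change was −0.26 ± 0.08 (adjusted p = 0.080). Ndrg1 (−0.45 ± 0.16, adjusted p = 0.156) and Pgk1 (−0.22, adjusted p = 0.240) had the same sign. Slc2a1, which takes up the glucose these enzymes use, had the opposite one. Without vehicle replicate 4, Ldha was at −0.21 (adjusted p = 0.221), Ndrg1 at −0.39 (adjusted p = 0.302) and Pgk1 at −0.17 (adjusted p = 0.448).

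Slc2a1 was higher with 50 µM at 24 and at 48 h, and passed the test at 48 h. At 24 h it was at 76.1, 64.6, 70.7, 79.9 and 72.95 CPM, with 4 of 5 libraries above all vehicle libraries (0.42 ± 0.13, adjusted p = 0.091). Slc2a1 passed at 24 h in 2 of 10 fits that left out a library (adjusted p from 0.028 to 0.207). Among them was the fit without vehicle replicate 4 (0.52, adjusted p = 0.045). That library was the highest of vehicle, so leaving it out widens the difference by itself. At 48 h Slc2a1 was at 76.9, 106.5, 71.6, 70.35 and 70.4 CPM, against 54.0, 55.6, 47.35, 48.3 and 52.0 CPM in vehicle. All 50 µM libraries exceeded all vehicle libraries, by 0.61 ± 0.10 on the log2 scale (adjusted p = 0.00142), a ratio of 1.53. The call held in all 10 fits that left out a library, including the one without replicate 2, the library in which every gene was high (0.49, adjusted p = 3.46e-04). In 4 of 5 libraries the level at 50 µM and 48 h lay above the 48 h vehicle libraries and below the 3 h ones.

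It was the 1 of 10 genes that passed at 48 h, where 9.18% of all genes did. Vegfa came next, at 128, 170.1, 134.7, 151.1 and 127.4 CPM with 50 µM against 112.3, 145.4, 103.1, 89.0 and 94.4 CPM in vehicle. The groups overlapped (0.38 ± 0.12, adjusted p = 0.057). Replicate numbers paired the libraries of this comparison, and with the number as a block Vegfa passed as well (0.39, adjusted p = 6.78e-04), beside Slc2a1 (0.60, adjusted p = 9.95e-06). Without replicate 2 of 50 µM and without the block, Vegfa was at 0.31 (adjusted p = 0.122).

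The remaining genes at 48 h differed from vehicle by less than the test could tell. Adm had 0.70 ± 0.39 (adjusted p = 0.307), Car9 −0.53, Ankrd37 −0.43, Egln3 0.28, Bnip3 0.26, Pgk1 −0.17, Ldha −0.13 and Ndrg1 −0.07. The 95% interval of Ankrd37 ran from −1.21 to 0.35 and includes the value seen at 3 h. Several of these rested on the library that stood apart: without replicate 2, Bnip3 was at −0.07, Pgk1 at −0.33 (adjusted p = 0.082) and Ldha at −0.28 (adjusted p = 0.078), and the median of the 10 genes went from 0.09 to −0.17.

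**Figure D4:**
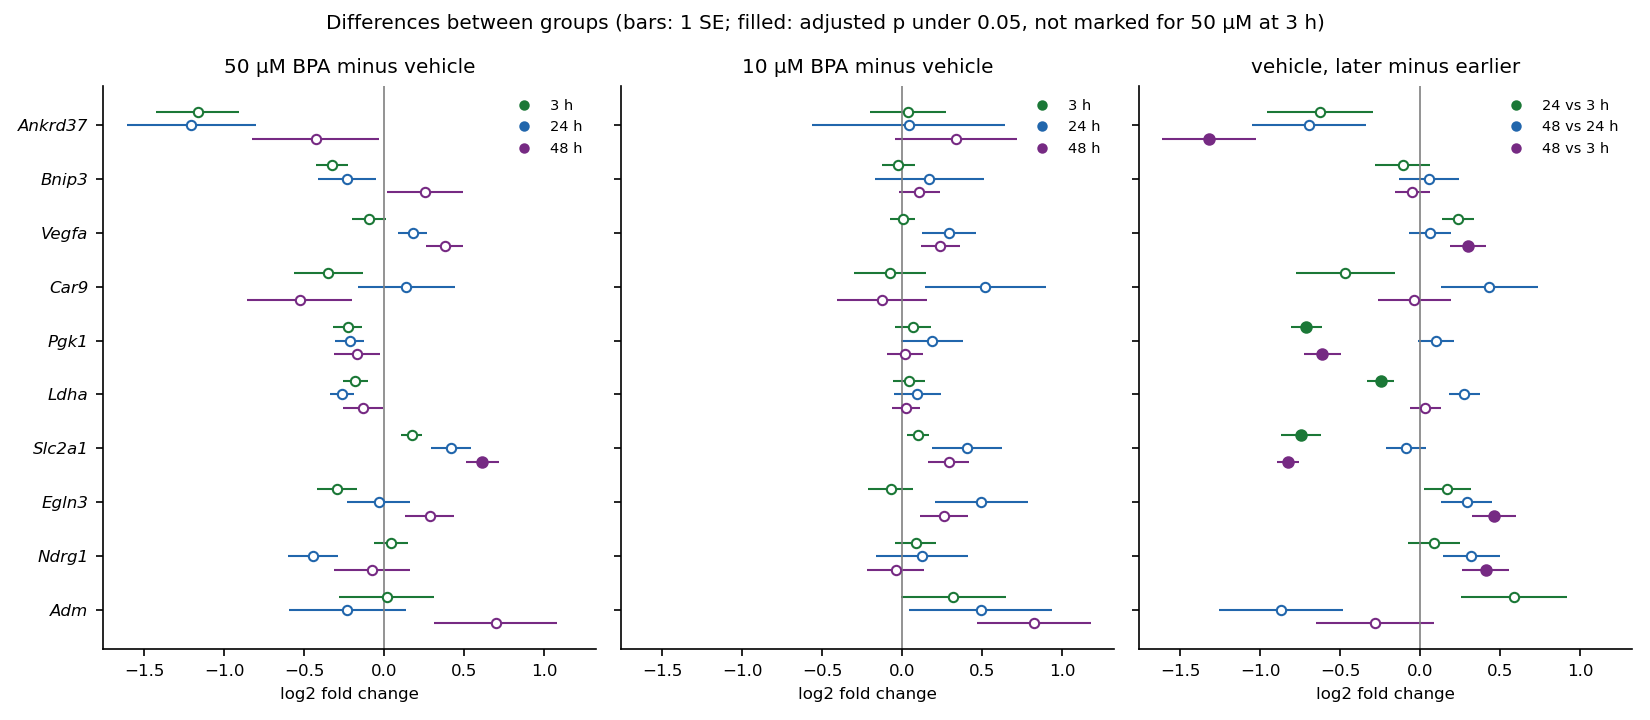
Log2 fold change of each gene for 50 µM against vehicle, 10 µM against vehicle and later against earlier times in vehicle, with points for estimates and bars of 1 SE. Filled points passed at an adjusted p under 0.05 (not marked for 50 µM at 3 h). Slc2a1 at 50 µM lies at 0.17, 0.42 and 0.61 at the 3 times and Ankrd37 at −1.16, −1.21 and −0.43.

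Cell markers also moved with 50 µM. At 48 h the summed macrophage markers were at 184.9 ± 48.0 CPM against 282.0 ± 37.0 CPM in vehicle and the skeletal muscle markers at 1709 ± 319 against 3939 ± 682 CPM (SD, n = 5 each), with 6 of 10 and 8 of 9 tested markers lower. Of 12 chondrocyte markers 1 was higher, and of the endothelial and red-cell markers none passed the test. Their part in the Slc2a1 difference was not tested.

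Both doses were compared with the same vehicle libraries. With 10 µM none of the 10 genes passed edgeR's test at any time, as was true of nearly all genes: 0.0% passed at 3 h, 0.0% at 24 h and 0.00591% (1 gene) at 48 h. DESeq2 called none either (9 of the 10 had an adjusted p at 24 h). At 3 h the log2 fold changes had a median of 0.04, and 0 of the genes had an unadjusted p under 0.05.

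At 24 h all 10 genes lay above vehicle, with a median log2 fold change of 0.24, led by Car9 (0.52), Egln3 (0.49), Adm (0.49) and Slc2a1 (0.40 ± 0.22), each with an adjusted p of 1.00. That common sign rested on replicate 4. Without it 4 genes lay above and 6 below, the median was −0.11, Ankrd37 went from 0.04 to −1.16, Bnip3 from 0.17 to −0.39 and Slc2a1 to 0.11, and still none passed.

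At 48 h of 10 µM the values were small apart from Adm, at 1.685, 2.415, 1.94, 1.07 and 1.51 CPM against 1.26, 1.49, 0.334, 0.7675 and 1.01 CPM in vehicle. In 4 of 5 libraries Adm exceeded all vehicle libraries (0.83 ± 0.36, adjusted p = 0.840). Slc2a1 was at 0.29 ± 0.13 (adjusted p = 0.840) with 3 of 5 libraries above all of vehicle. These 2 genes had an unadjusted p under 0.05, as did 5.79% of all genes.

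In the direct comparison of the doses none of the 10 genes passed, by edgeR or by DESeq2 (which gave 9 an adjusted p at 3 h), where 0.618% of all genes passed at 3 h, 0.789% at 24 h and 3.14% at 48 h. Ankrd37 had the largest difference at each time, −1.20 ± 0.46 at 3 h, −1.25 ± 0.48 at 24 h (adjusted p = 0.306) and −0.75 at 48 h (adjusted p = 0.589). At 3 h the doses did not overlap, since the 10 µM libraries had 3.55, 5.08, 3.87, 3.76 and 3.195 CPM. The 50 µM values of 3 h were used in choosing the genes, so nothing is read from this. At 24 h the difference was carried by replicate 4 of 10 µM: without the 2 libraries that stood apart it was −0.04, and at 48 h it was then −1.12 (adjusted p = 0.156). Slc2a1 differed between doses by 0.07, 0.02 and 0.33 ± 0.16 (adjusted p = 0.351 at 48 h). An unadjusted p under 0.05 was found for 5 of the genes at 24 h and for 9.54% of all genes. The median log2 fold change of the 10 genes at 24 h was −0.40, and without the 2 libraries that stood apart it was −0.05.

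Whether the effect of 50 µM changed with time was tested as an interaction. For 48 against 24 h none of the 10 genes passed by edgeR or by DESeq2, and by edgeR 0.0% of all genes did. The Slc2a1 values of 0.42 at 24 h and 0.61 at 48 h are therefore not shown to differ, and neither are those of Ankrd37. The interactions with 3 h hold the values used in choosing the genes, so nothing is read from them for the 10 genes. Of all genes, 0.592% passed for 24 against 3 h and 1.96% for 48 against 3 h.

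Within groups the 10 genes varied together. Deviations of log2 CPM from the group mean correlated positively in 45 of 45 pairs of genes over the 45 libraries, with a median Pearson r of 0.70 (Spearman 0.54), from 0.46 for Ankrd37 with Vegfa to 0.92 for Pgk1 with Ldha. These are descriptions, since the points share library depth and tissue makeup. Without the 2 libraries that stood apart all 45 pairs stayed above 0, but the median r was 0.46, and 16 pairs instead of 43 exceeded 0.5. Pgk1 with Ldha, neighbours in glycolysis, remained at the upper end, where the highest r was 0.83. The correlation was weaker at 3 h, when the median r was 0.14 and 34 pairs lay above 0, than at 24 h (0.79) and 48 h (0.70). The libraries that stood apart were of 24 h and 48 h, and medians per time without them are not given here.

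**Figure D5:**
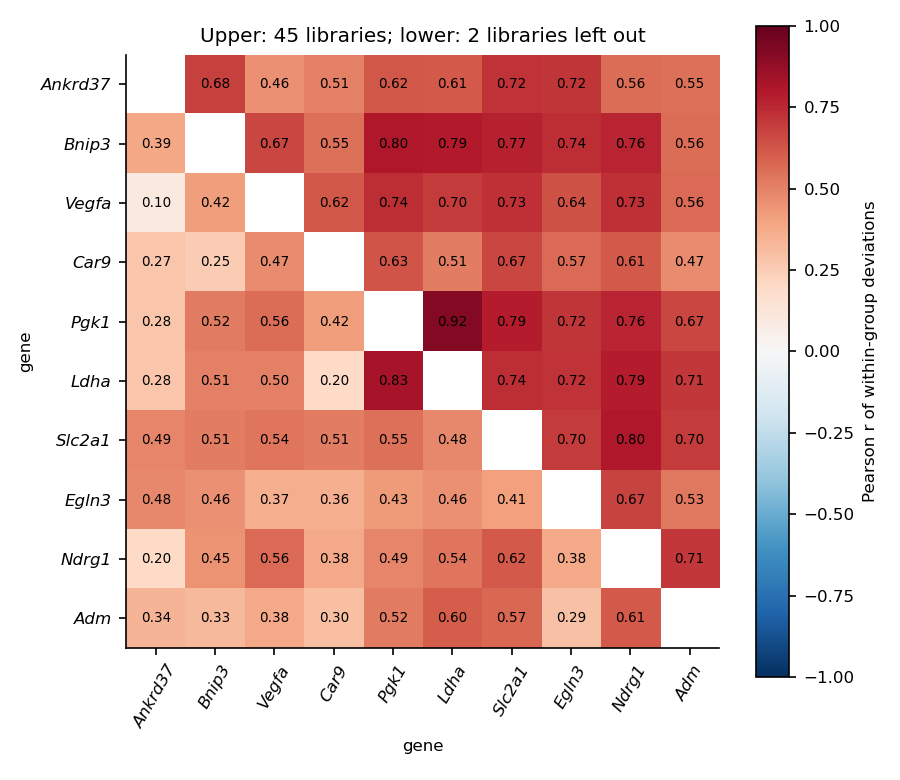
Pearson correlation of within-group deviations (log2 CPM) for each pair of the 10 genes, above the diagonal over 45 libraries and below it without the 2 that stood apart. All pairs are positive on both sides, with medians of 0.70 and 0.46.

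Other genes of glycolysis varied with the mean of the 10 genes. The median r with that mean was 0.72 for 16 further glycolysis genes, 13 of them above 0.5, and 0.48 for 34 further HIF targets, 16 of them above 0.5. It was 0.03 for 14 genes of oxygen sensing, of which Egln1 alone exceeded 0.5, and −0.01 for 13396 genes of mean count 50 or more, of which 0.657% did. It was 0.15 for 14 receptors and partners of Vegfa and Adm, 0.28 for 10 mitophagy genes and −0.32 for skeletal muscle markers. Without the 2 libraries the medians were 0.57 for glycolysis, 0.29 for HIF targets and 0.00 for oxygen sensing. Cell type markers then reached the same range, with 0.39 for epidermis, 0.37 for endothelium and 0.33 for limb mesenchyme, and −0.47 for skeletal muscle. Their part in the common variation was not tested.

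The genes most like Ankrd37, Bnip3 and Vegfa in these deviations were ranked over 45 libraries. For Ankrd37 the 5 nearest of 12645 genes were Pfkfb3 (r 0.81), Zfp395 (0.78), the glucose transporter Slc2a3 (0.74), Narf (0.72) and the pyruvate dehydrogenase kinase Pdk1 (0.71). For Bnip3 they were Narf (0.85), the enolase Eno1 (0.81), the vessel peptide Apln (0.80), Egln1 (0.80) and the aldolase Aldoa (0.80). For Vegfa they were Slc16a3 (0.76), Higd1a (0.74), the collagen prolyl hydroxylase P4ha2 (0.74), Eno1b (0.73) and the isomerase Tpi1 (0.72). Without the 2 libraries these 15 values lay between 0.47 and 0.71.

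Lists of other genes of the pathway were counted with 50 µM and are to be read beside the shares of all genes given above. Of 35 further HIF targets, 0 rose and 2 fell at 3 h, 2 rose and 2 fell at 24 h, and 7 of 34 rose and 2 fell at 48 h. Those of smallest p at 48 h were Ppfia4 (log2 fold change −0.76), the haem oxygenase Hmox1 (0.56), Hk2 (0.55) and Tmem45a (0.37). At 3 h the 2 were Pfkfb3 (−0.54) and the collagen lysyl hydroxylase Plod2 (−0.40). At 24 h Hmox1 (0.39) and Tmem45a (0.36) were higher, and Ppfia4 (−0.46) and the secreted lipase inhibitor Angptl4 (−0.75) were lower.

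Of 16 further glycolysis genes, the lactate transporter Slc16a1 rose at all 3 times (0.39, 0.35 and 0.29). It was joined by the fall of Eno1 at 24 h (−0.35), and by the rise of Hk2 and the fall of the phosphofructokinase Pfkm (−0.27) at 48 h. Slc2a1 (glucose entry), Hk2 (glucose phosphorylation) and Slc16a1 (lactate transport) had a higher RNA at 48 h, while Pgk1 and Ldha did not pass. Of the 16 further glycolysis genes, 2 rose and 1 fell at 48 h, where 9.18% of all genes passed. The median log2 fold change of these 16 genes was −0.08, so the list as a whole did not rise.

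The oxygen-sensing genes passed in 0 of 14 cases at 3 and at 24 h, and at 48 h Arnt2 was higher (0.23) and Hif1an lower (−0.22). Hif1a was at 0.00, 0.02 and 0.06 with 50 µM at the 3 times, Epas1 at 0.12, −0.17 and 0.01, Arnt at −0.04, −0.10 and −0.06, and Egln1 at −0.14, 0.09 and 0.07. These are RNA levels, and HIF alpha is known to be controlled mainly as a protein. Among 14 genes listed as partners of Vegfa and Adm, Ramp1 fell at 48 h (−1.08, adjusted p = 0.00292). None of 10 mitophagy partners of Bnip3 passed. With 10 µM no gene of these 5 lists passed.

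Between times in vehicle, the counts of the lists stand beside 30.0% of all genes that passed from 3 to 24 h and 46.7% from 3 to 48 h. Of the 16 glycolysis genes, 2 rose and 8 fell between 3 and 24 h, among them Pfkp (−0.89), the pyruvate kinase Pkm (−0.57), Gapdh (−0.55) and Tpi1 (−0.45), and 2 rose and 8 fell between 3 and 48 h. HIF targets went both ways, with 9 up and 7 down by 24 h and 11 up and 11 down by 48 h, such as Bhlhe40 (1.71) and Ppfia4 (1.44) against Ccng2 (−1.01) and Slc2a3 (−0.82). Of the genes listed as partners of Vegfa and Adm, Ramp1 rose by 48 h (1.97), as did Ramp3 (1.15). The vessel receptors Flt4 (−1.36) and Flt1 (−0.66) fell. Arnt2 fell (−0.88) in the same comparison.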

How the data were processed

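RNA of 45 forelimb bud cultures was sequenced after poly-A selection and random priming, per the labels' protocols. The deposited values are whole-number read counts per gene and FPKM in 9 tables, and CASAVA 1.8, STAR 2.5, HTSeq 0.6.1, DESeq2 2 and mm10 are named per the submitters' processing notes, without roles or settings; strand handling is not stated in them. Only the deposited counts were tested; the deposited FPKM, scaled by the authors for gene length and depth, compare levels between genes. Genes with no row in a table had a summed count of at most 1 there and were set to 0. Tables that share a library hold the same counts for it. Counts of PCR reads are not independent molecules, and their number limits the precision of Ankrd37, Car9 and Adm most.

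Groups follow the titles, also where a field of the 50 µM 3 h libraries gives another time. Each comparison with vehicle or between vehicle times was fitted on its 10 libraries with edgeR 4.0.16 in R 4.3.3 (quasi-likelihood test, TMM factors, minimum count 10 and total 15, Benjamini-Hochberg adjustment over all genes at 0.05). Doses and interactions came from a fit of all 45 libraries. A gene that passed is said to have risen or fallen. The SE is the absolute log2 fold change over the square root of F. Log2 CPM use a prior count of 2. The fits were tested on simulated data.

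The 10 genes and all lists were chosen with earlier results of these data known. The text names all 10 genes, up to 4 genes of smallest p per list and comparison, 6 core HIF genes, and the 5 genes most correlated with Ankrd37, Bnip3 and Vegfa. Aldoa has 2 identifiers, and the one with more reads was used. Replicate numbers paired libraries where all 5 same-numbered pairs of deviations correlated above 0.1, which held for 50 µM against vehicle at 48 h (0.106 to 0.215). Alternatives were DESeq2 1.42.0, other size factors and filters, other sets of libraries in the fit, the replicate block, an epidermal covariate and each library left out in turn; leaving out the 2 libraries that stood apart was chosen after seeing the data.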

Additional observations from a re-analysis of the deposited data

Results flagged for a closer look

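Each of the 90 sets of 5 libraries (10 genes in 9 groups) was searched for a library far from the other 4, by Dixon's criterion, under which chance gives about 1 set in 20; 18 sets had one. Replicate 4 of 10 µM at 24 h was the highest for Ankrd37 (7.91 CPM, the nearest other library at 1.54), Bnip3 (67.4, nearest 25.15), Vegfa (199.3, nearest 122.6), Pgk1 (361.1, nearest 181.4), Ldha (483.9, nearest 294.4), Slc2a1 (123.9, nearest 73.0), Egln3 (32.4, nearest 13.3) and Ndrg1 (55.5, nearest 25.2). Replicate 2 of 50 µM at 48 h was the highest for Pgk1 (252.5 CPM, nearest 172.1), Ldha (459.4, nearest 308.3), Slc2a1 (106.5, nearest 76.9), Egln3 (22.9, nearest 15.5) and Ndrg1 (56.1, nearest 29.1).

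Replicate 4 of vehicle at 24 h was the highest for Ankrd37 (4.75 CPM, nearest 2.165) and Egln3 (15.1, nearest 10.55). Car9 stood apart in replicate 2 of 10 µM at 48 h (4.925 CPM, nearest 2.19) and Egln3 in replicate 3 of 10 µM at 3 h (12.5, nearest 9.15). The single low value was Pgk1 in replicate 3 of 50 µM at 3 h, at 219.7 CPM with the nearest other library at 261.3. The 18 sets are not independent, since 13 of them come from 2 libraries.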

How the results depend on the processing

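No direction reversed under any alternative for a gene that had passed, and the rise of Slc2a1 with 50 µM at 48 h passed under all of them. With 50 µM at 3 h no count of the 10 genes is read, since values of that comparison were used in choosing them. At 24 h, against 0, the count was 1 with no filter, 2 by DESeq2 and 5 with the replicate number as a block (Slc2a1 higher; Ankrd37, Pgk1, Ldha and Ndrg1 lower), where same-numbered libraries correlated at 0.031 to 0.221 and 4 of 5 best with their own number. At 48 h it was 2, against 1, with no filter, with the replicate block and with the epidermal covariate. In vehicle, DESeq2 called 1 between 24 and 48 h, against 0, and the fit of all 45 libraries 3 between 3 and 48 h, against 6; upper-quartile factors gave 1 higher and 3 lower there. Between doses at 3 h, 1 passed (Ankrd37) in a fit of the groups compared. Its values were used in choosing the genes, so nothing is read from it. The cause of these shifts was not tested. The block changed no other count of the 10 genes by over 1.5 times.

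With each library left out, the counts of the 10 genes for 50 µM ran from 0 to 1 at 24 h and from 1 to 2 at 48 h. For vehicle they ran from 2 to 5, 0 to 1 and 4 to 6 (24 against 3, 48 against 24, 48 against 3 h). They were 0 for 10 µM, between doses at 24 and 48 h and for the interaction of 48 with 24 h. Over all genes, 50 µM at 3 h gave 239 calls, 515 by DESeq2 and 463 in the fit of all libraries. At 24 h it gave 585, or 917 by DESeq2, 885 with all libraries and 1180 with the block, and at 48 h 1536, or 2598 with the block. With 10 µM DESeq2 gave 14, 17 and 51 calls where edgeR gave 0, 0 and 1, and the block gave 95 at 24 h and 37 at 48 h (58 with the library codes' numbers). Doses differed in 119 genes at 3 h, 208 by DESeq2 and 21 in the groups alone, and in 152 at 24 h, 259 by DESeq2. The interaction of 24 with 3 h had 114, 206 by DESeq2 and 183 with the block.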
